A study of Oryza sativa with 12 samples.

Results

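The narrow reproducible H2A.Z regions of rice seedlings are short stretches of chromatin, 600 bp or less, in which every H2A.Z library of the study had a peak. The peaks of the 4 H2A.Z libraries were merged into regions wherever they overlapped or touched. Of the 53017 merged regions, 38145 had a peak in all 4 libraries, and 4051 of these were 600 bp or shorter. The narrow regions were thus 10.6% of the regions found in all 4 libraries, but with 2.22 Mb they held only 3.12% of their length. The members were chosen by the presence of an H2A.Z peak in each library and by the width of the merged region, so that enrichment over input, as such, is a description here. Genotype labels were not used in the choice, and neither were the H3 peaks. A peak was required in both genotypes, however, so regions that lost or gained their peak in oschz1 were left out. The comparisons of the genotypes cover only regions called in both.

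The study asked whether loss of OsChz1, a rice histone chaperone, alters H2A.Z in chromatin. Whole 30-day-old seedlings were used, grown in long days with 14 h of light at 30 °C and 10 h of dark at 28 °C. NIP is the unmutated rice, and oschz1 carries a loss-of-function allele of OsChz1 that was made with CRISPR/Cas9 and freed of the transgene. The study's text names the allele oschz1-1, while the sample labels give only oschz1. Each genotype has 2 ChIP libraries with an antibody against H2A.Z, 2 with an antibody against H3, and 2 inputs made without antibody, so the mutant is represented by a single line and 2 libraries per antibody. Seedlings were pooled and hold many cell types, so fewer cells with H2A.Z at a site and less H2A.Z per cell cannot be told apart. The labels do not say that replicates came from separate plantings, and spreads and p-values measure the variation between these libraries.

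H2A.Z is a variant of the core histone H2A. It replaces H2A in some nucleosomes, most often in those that flank the start sites of genes, and in plants it is also found across the bodies of genes that respond to the environment. Chaperones such as Chz1 of yeast bind dimers of H2A.Z and H2B and help to hand them to the machinery that builds them into nucleosomes. H3 is part of nearly all nucleosomes, and an H3 library therefore reports on nucleosomes whatever their H2A variant. A region of 200 to 600 bp has room for only a few nucleosomes.

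Peaks had been called in windows of 200 bp, so the members came in 3 widths. There were 49 of 200 bp, 935 of 400 bp and 3067 of 600 bp, and each held exactly 1 peak in each library. The libraries did not always cover all of a region. In NIP replicate 1 the peaks were 200 bp long in 186 members, 400 bp in 1645 and 600 bp in 2220. In NIP replicate 2 these numbers were 191, 1722 and 2138, in oschz1 replicate 1 they were 168, 1631 and 2252, and in oschz1 replicate 2 they were 174, 1651 and 2226. The mean covered length per member was 500 and 496 bp in the NIP libraries and 503 and 501 bp in the oschz1 libraries. Bases shared by all 4 libraries amounted to 200 bp in 458 members, 400 bp in 2189 and 600 bp in 1404.

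In 2191 members (54.1%) all 4 libraries covered precisely the same bases, against 18.6% of all regions with a peak in all 4 libraries. These 2191 regions of the same extent are the cleanest ground for comparing read counts, since a count covers only the bases of a library's own peak. They leave out every member whose peaks differed between libraries, and they are not typical of all members. The median one had 577 ChIP reads over the 4 libraries together, against 510 for all members. Among the other members, 137 (3.38%) had longer peaks in each oschz1 library than in either NIP library, and 92 (2.27%) had shorter ones. Over all 38145 regions those shares were 11.3% and 5.06%. Width was part of the choice, and these shares were not tested against each other.

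Short regions were less often found in every library. A region takes its width from the merged peaks of all libraries, so a peak in a further library can widen it. Part of this trend can thus come from the merging itself, and how much was not tested. Of all merged regions of 200 bp, 6.79% had a peak in all 4 libraries, and the share was 19.7% at 400 bp, 45.0% at 600 bp, 62.4% at 800 bp and 72.9% at 1000 bp. There was no step at the limit of 600 bp. Of the 12280 merged regions of up to 600 bp, 3615 were seen in 1 library only and 2370 in 2. A peak was missing in a single library in 342 cases for NIP replicate 1, 647 for NIP replicate 2, 562 for oschz1 replicate 1 and 693 for oschz1 replicate 2. Regions of this width seen in both NIP libraries and in neither oschz1 library numbered 552, and 455 had the opposite pattern.

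The read depth of a single member was modest. The members took 648316 reads in NIP replicate 1, 500749 in NIP replicate 2, 577107 in oschz1 replicate 1 and 534558 in oschz1 replicate 2, which was 2.92%, 2.97%, 2.88% and 2.88% of the 16886473 to 22192417 reads in the peaks of those libraries. The median member had 148 ChIP reads in NIP replicate 1, with a range from 51 to 555, and medians of 113, 132 and 122 in NIP replicate 2 and oschz1 replicates 1 and 2. Input reads over the same bases were fewer, with medians of 29, 23, 29 and 27 in the same order. Members were also called with less certainty than other peaks. A false discovery rate of at most 1e-10 was reached by 66.2%, 57.2%, 58.2% and 54.1% of members in the 4 libraries, and by 76.3%, 73.5%, 74.5% and 72.2% of all peaks. Only 1043 members (25.7%) reached it in all 4 libraries.

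Narrow regions were found along all 12 chromosomes, with 5 more on the sequences Sy and Un that are not placed on them. Their number ran from 212 on chromosome 10 to 518 on chromosome 1. Their density was between 9.13 per Mb on chromosome 11 and 12.4 per Mb on chromosome 6, over the length that peaks span. Chromosomes 12 and 6 had the highest narrow share of their reproducible regions, 13.1% and 12.4%, and chromosomes 4 and 1 the lowest, 9.61% and 9.71%. On chromosome 12 this share stood beside the lowest density of reproducible regions of any chromosome, 77.7 per Mb, and not beside a high density of narrow ones.

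Along the chromosomes, narrow regions made up more of the H2A.Z regions in the middle than at the ends. When each chromosome was divided into 10 parts of equal length, the narrow share was 8.44% in the first and 8.60% in the last, and it reached 14.1% in the fifth and 13.5% in the sixth. Both sets were thinner in the middle. The fifth part held 7.32% of the narrow regions but 5.52% of all reproducible regions, and the last held 11.2% and 13.9%. The distance between regions changed along with this, since the median distance of a reproducible region to its nearest neighbour was 2200 bp in the fifth part and 800 bp in the last part. The positions of genes, repeats and centromeres were not analysed here, because no annotation of the genome release used for these files was in hand.

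**Figure D1:**
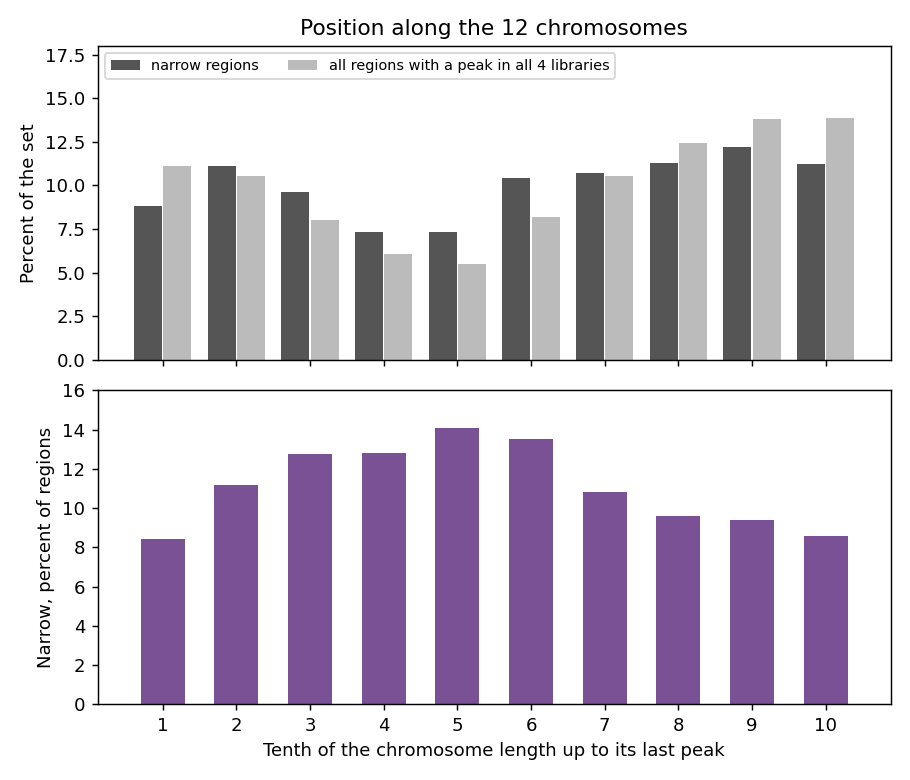
Position of the H2A.Z regions in 10 equal parts of each chromosome, measured to its last peak, over the 12 chromosomes together. The upper bars give the percent of the narrow regions (dark) and of all regions with a peak in all 4 libraries (light) that lie in each part, and the lower bars give the narrow share of those regions, which is 8.44% in the first, 14.1% in the fifth and 8.60% in the last.

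The nearest other H2A.Z region, of any width and from any library, lay at a median distance of 1400 bp from a narrow region (quartiles 600 and 3200 bp). The median on the farther side was 5600 bp. Regions of over 600 and up to 1200 bp had the same median and the same quartiles as narrow ones. Regions over 1200 bp were closer to a neighbour, at a median of 1000 bp. The 49 members of 200 bp also had a median of 1000 bp. The nearest neighbour was within 1000 bp for 1700 narrow regions (42.0%), and for 35 of them only a single window of 200 bp lay between. At the other end, 179 (4.42%) had no other H2A.Z region within 10000 bp, against 2.53% of the longer regions. Measured within each library alone, the median distance from a member's peak to the next peak was 1800, 2000, 1800 and 1800 bp.

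In the order of the reproducible regions along the genome, 3147 stood between wider ones, 368 pairs followed each other directly, and the longest run was 6. In all, 904 members (22.3%) stood next to another narrow one on either side. Narrow regions were 10.6% of the whole set. A member has a neighbour on each side, so the 22.3% cannot be read directly against the 10.6%. The nearest neighbour was itself 600 bp or less in 25.01% of cases, beside 21.4% for longer regions, and its median width was 1200 bp. That neighbour had a peak in all 4 libraries in 72.8% of cases, beside 73.8% for longer regions. The 3 most isolated members were a region of 600 bp on the unplaced sequence Un (positions 1001 to 1600), one on chromosome 12 (9675201 to 9675800) and one of 400 bp on chromosome 7 (14208601 to 14209000). Their nearest neighbours were 622600, 61000 and 53400 bp away. The region on chromosome 12 had 176 and 156 reads in NIP and 185 and 151 in oschz1, and the one on chromosome 7 had 137 and 89 in NIP and 103 and 110 in oschz1. Both were thus present at similar raw counts in the genotypes, and neither had an H3 peak in more than 1 H3 library.

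ChIP reads over the narrow regions exceeded scaled input reads about 2-fold. Summed over all members, the ratio was 2.11 and 2.13 in the NIP libraries and 2.02 and 2.02 in the oschz1 libraries. Regions over 600 bp had ratios of 2.33 and 2.32 in NIP and 2.18 and 2.15 in oschz1, and those over 600 and up to 1200 bp lay between, at 2.25 and 2.25 and at 2.12 and 2.09. Directly inside the limit, members of 600 bp had 2.11 and 2.13 in NIP and 2.02 and 2.01 in oschz1. Directly outside it, regions of 800 bp had 2.18 and 2.18, and 2.07 and 2.05. Width was part of the rule, and these levels were not tested. The 49 members of 200 bp had higher and more scattered ratios, from 2.30 to 2.70, and the median one had 258 ChIP reads over the 4 libraries together.

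Single members varied far more than their sum. Among the 3698 with at least 10 input reads in every library, the mean ratio over the 4 libraries ran from 1.25 to 4.96, with a median of 2.08 and quartiles of 1.79 and 2.45. A ratio of at least 3 was reached by 294 of them (7.95%), close to the 7.66% of longer regions. The highest mean belonged to a region of 600 bp on chromosome 1 (35205401 to 35206000), 1600 bp from its neighbour. Its ratios were 3.23 and 7.45 in NIP and 4.27 and 4.88 in oschz1, and the NIP values rested on 341 and 269 ChIP reads but only 42 and 15 input reads. A region of 400 bp on chromosome 9 (16341601 to 16342000) had ratios of 7.88, 2.06, 6.92 and 2.86 in the same order, with 10, 30, 11 and 17 input reads. In both, the high and low libraries followed the input counts, while the ChIP counts varied less. The other 3 of the 5 highest means were on chromosomes 6 (16970001 to 16970600), 2 (2180601 to 2181200) and 7 (8202801 to 8203400), at 4.79, 4.77 and 4.74. For the last the ratios were 4.80 and 3.47 in NIP and 4.89 and 5.82 in oschz1.

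How far such values repeat was measured over the 2191 regions of the same extent. Between 2 libraries, Pearson's correlation of log2 ChIP reads per kb across regions was 0.872 for the NIP replicates and 0.847 for the oschz1 replicates, and 0.824 to 0.842 for the 4 pairs of unlike genotype. For log2 ChIP over input the correlations were only 0.315 to 0.356. These are correlations across regions, which are not independent replicates, and the libraries share the genome positions, base composition and mappability of the regions. The SD of the difference in log2 ChIP over input between the NIP replicates was 0.55, of which 0.44 is the SD that the read counts alone would give. For the oschz1 replicates the values were 0.55 and 0.43. Much of the scatter of a single narrow region was thus of the size that its read counts give, and sums over many members are more reliable than single values.

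The first comparison of the genotypes used the enrichment over input. In all narrow regions together it averaged 2.12 ± 0.0193 in the NIP libraries and 2.02 ± 0.0024 in those of oschz1 (SD, n = 2), a difference of -4.59% or -0.068 on the log2 scale. The higher oschz1 library was below the lower NIP library, and the difference exceeded the spread between replicates. The two-sided exact permutation p was 0.333, the smallest that 2 libraries against 2 allow, so that no such comparison can pass 0.05. In the regions of the same extent the ratios were 2.17 and 2.19 in NIP and 2.07 and 2.06 in oschz1, a difference of -0.079 on the log2 scale. Members of 400 bp differed by -0.046 and those of 600 bp by -0.073. The members of 200 bp, with ratios of 2.30 and 2.70 in NIP and 2.33 and 2.52 in oschz1, overlapped between the genotypes.

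The lower enrichment in oschz1 was found on most chromosomes when each was taken alone. The log2 difference over all members was negative on 12 of the 12 chromosomes, from -0.018 on chromosome 7 to -0.10 on chromosome 3. In the regions of the same extent the genotypes separated in that direction on 11 chromosomes. The exception was chromosome 7, with 2.15 and 2.20 in NIP and 2.21 and 2.16 in oschz1 over 156 regions. All chromosomes come from the same libraries, so these are not independent repeats.

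The difference between the genotypes was smaller in value in narrow than in longer regions. Regions over 600 bp differed by -6.84%, against -4.59% for narrow ones. The need for a peak in all 4 libraries left out more of the short regions. It was met by 33.0% of merged regions of up to 600 bp and by 83.7% of those over 600 bp. The part of this choice in the smaller difference was not tested. The log2 ratio of narrow to longer enrichment was -0.15 and -0.12 in the NIP libraries and -0.11 and -0.092 in the oschz1 libraries, so that narrow regions came closer to longer ones by 0.034 in oschz1. Here too the genotypes did not overlap, and the exact permutation p was 0.333 for 2 libraries against 2, again the smallest possible. In regions of the same extent the difference was 0.040, and against regions over 600 and up to 1200 bp of the same extent it was 0.047. Without NIP replicate 1 it was 0.024 and without oschz1 replicate 2 it was 0.026, and in both cases the values still did not overlap, while 1 library against 2 gave an exact permutation p of 0.667.

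**Figure D2:**
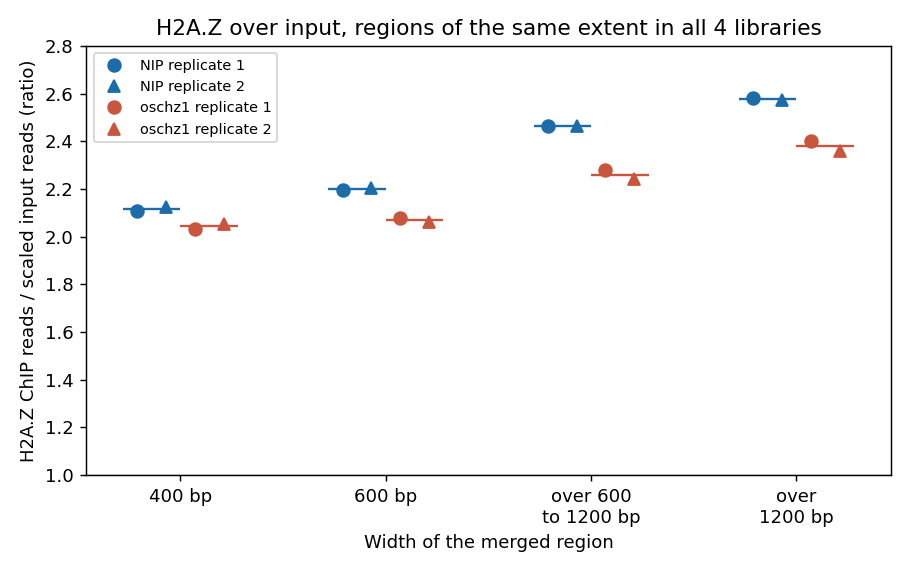
H2A.Z ChIP reads over scaled input reads in each of the 4 H2A.Z libraries, summed over regions of the same extent, by width of the region (738 regions of 400 bp, 1404 of 600 bp, 2900 of over 600 to 1200 bp and 2016 over 1200 bp). Points are libraries, horizontal lines are means of 2 libraries, and the axis starts at 1, where ChIP equals scaled input. In each class shown both oschz1 libraries sit below both NIP libraries, and at 600 bp they are 2.08 and 2.06 against 2.20 and 2.20.

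Region by region, the ratios of the genotypes overlapped in most members. Of the 2191 members of the same extent, both oschz1 ratios lay below both NIP ratios in 485 (22.1%) and above them in 317 (14.5%). Among all 7107 regions of the same extent these shares were 28.0% and 11.2%. Over the 4051 members of any extent 829 (20.5%) were below and 569 (14.0%) above, against 26.6% and 11.0% of all 38145 regions. Members below thus outnumbered members above, as in all regions together, where the gap between the shares was wider.

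Reads per region were then tested with edgeR over all 38145 regions, using the reads in peaks as library size. None of the 4051 narrow regions passed a Benjamini-Hochberg adjusted p of 0.05, and the smallest adjusted p was 0.083. Over all regions tested, 0.076% were lower in oschz1 and 0.731% were higher at that threshold. At an unadjusted p below 0.05 there were 98 narrow regions (2.42%) with a fall and 74 (1.83%) with a rise, beside 6.49% and 5.87% of all regions. With the library size recovered from the input scaling this split was 147 and 46 (all regions 11.8% and 4.32%), and with TMM factors it was 81 and 86 (all regions 4.75% and 6.91%). The median log2 change of narrow regions was -0.026, beside -0.024 for all regions. limma on log2 ChIP over scaled input called 0 regions of any width after adjustment (0.0%), and without adjustment 310 narrow falls (7.65%) and 161 rises (3.97%), beside 4.72% and 1.65% of all regions. DESeq2 called 1 narrow fall and 2 rises, beside 0.309% and 1.86% of all regions.

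The members nearest to the threshold were regions whose peaks differed in length. The smallest p among falls belonged to a region of 600 bp on chromosome 2 (5463801 to 5464400), with 140 and 121 reads in NIP and 60 and 55 in oschz1. Its log2 change was -1.17 ± 0.23 (SE) with an edgeR adjusted p of 0.083. Both NIP peaks covered 600 bp of it and both oschz1 peaks only 200 bp. Over their own bases, its ratios to input were 2.32 and 1.62 in NIP and 1.69 and 1.78 in oschz1, which overlap. These ratios rest on different bases in the genotypes, so they do not compare the whole region. Among rises the smallest p belonged to a region on chromosome 5 (11474001 to 11474600), with 109 and 58 reads in NIP and 183 and 163 in oschz1. There both NIP peaks covered 200 bp and both oschz1 peaks 600 bp, the log2 change was 1.09 ± 0.23 (SE), and the edgeR adjusted p was 0.11. Next came a region on chromosome 2 (11348201 to 11348800), with 61 and 50 reads over 200 bp in NIP and 95 and 134 reads over 400 and 600 bp in oschz1 (edgeR adjusted p of 0.21). These 3 regions were also those that DESeq2 called, with adjusted p of 0.0066, 0.0069 and 0.047.

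The region with the next smallest p among falls kept its length. It is 600 bp long, lies on chromosome 3 (34290001 to 34290600) 400 bp from a region of 2200 bp, and was covered in full by every library. It had 495 and 386 reads in NIP and 302 and 317 in oschz1, which is 22.3 and 22.9 RPM against 15.0 and 17.1, where RPM are the reads scaled to 1e+06 reads in peaks. Its ratio to input was 4.69 and 4.22 in NIP and 2.84 and 2.37 in oschz1, and the genotypes did not overlap in either measure. The log2 change was -0.49 ± 0.12 (SE) with an edgeR adjusted p of 0.17.

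Among the members with the smallest p, reads and covered bases often differed in the same direction. Of the 98 falls at an unadjusted p below 0.05, 34 had shorter peaks in each oschz1 library than in either NIP library and 0 had longer ones, and 31 had the same extent in all 4 libraries. Of the 74 rises, 40 had longer peaks in this sense, 0 had shorter ones and 6 had the same extent. With the covered length as an offset in edgeR, the chromosome 2 region with fewer reads had a log2 change of 0.41, and the rises on chromosomes 5 and 2 had -0.50 and -0.25. Their directions thus turned. This fit sets reads per base over unlike stretches against each other, since the peaks of the genotypes covered different bases. It therefore cannot tell which direction holds over the same bases. In this fit 0 of all regions passed the threshold (0.0%). Without adjustment it gave 143 narrow falls (3.53%) and 73 rises (1.80%), beside 8.01% and 1.97% of all regions.

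In regions of the same extent a difference in covered bases cannot arise. edgeR was run on the 7107 such regions of all widths with the recovered library size, a setting chosen with earlier results of these data known. Of the 2191 narrow ones, 85 (3.88%) were called lower in oschz1 and 4 (0.183%) higher at an adjusted p of at most 0.05. Among all regions of the same extent 12.2% were lower and 0.295% were higher. When the library size was again the sum of reads in peaks, 32 narrow regions were lower and 5 higher, beside 4.0% and 0.352% of all regions of the same extent, and each of the 32 was also among the 85. The result also rested on single libraries. Without NIP replicate 1 there were 29 lower (all regions 4.38%), without NIP replicate 2 there were 43 (5.7%), without oschz1 replicate 2 there were 38 (5.47%), and without oschz1 replicate 1 there were 82 (10.2%). Lower in each of those 4 fits were 6 narrow regions (0.274%), beside 1.44% of all regions of the same extent. Higher in each were 0, beside 0.0563%. With the recovered size, the median log2 change of the narrow regions was -0.081, and 68.4% of them had a negative value.

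Wider regions were called more often, and their counts were also larger. In this setting 2.98% of the members of 400 bp and 4.49% of those of 600 bp were lower in oschz1, and 0 of the 49 members of 200 bp passed in either direction. Of the regions over 600 and up to 1200 bp 13.3% were lower, and of those over 1200 bp 19.6%. The median of the mean reads per region rose from 107 at 400 bp and 170 at 600 bp to 312 and 704 in the wider classes, and the median standard error of the log2 change fell from 0.16 and 0.14 to 0.10 and 0.069. The medians of the change itself were closer together, at -0.069, -0.088, -0.12 and -0.10. The part of read depth in the share of called regions was not tested.

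**Figure D3:**
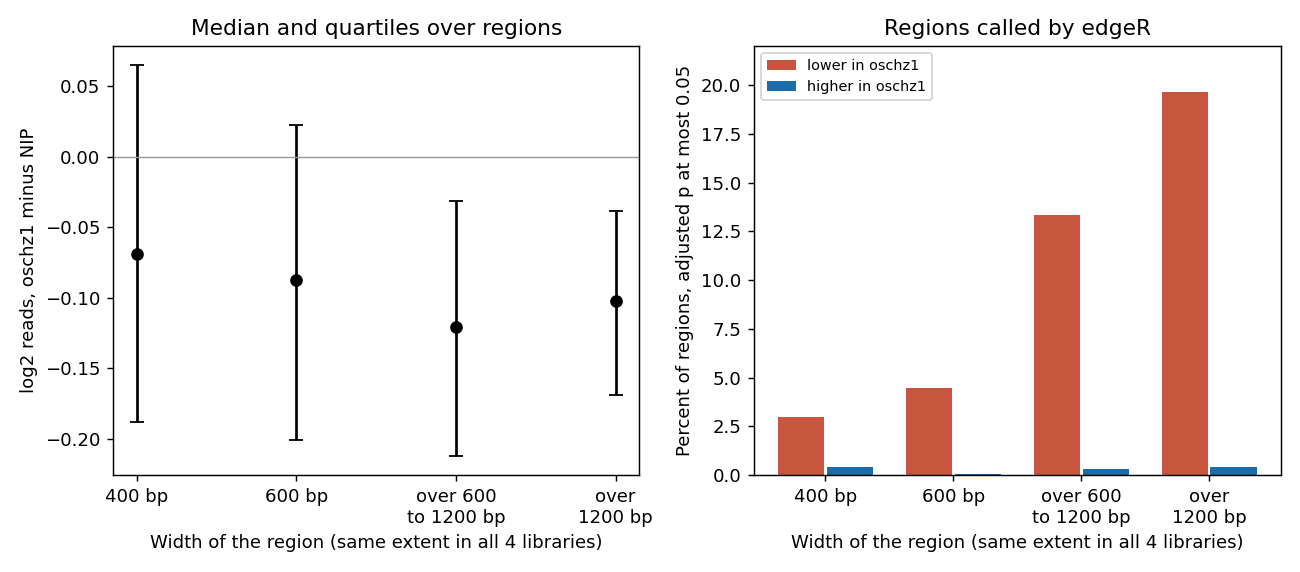
Change of H2A.Z reads in oschz1 against NIP in regions of the same extent, with the recovered library size, by width of the region. On the left, points are medians and bars the quartiles over regions of the log2 change, and the medians lie between -0.12 and -0.069. On the right, bars give the percent of regions that edgeR called lower or higher, which is 2.98% lower at 400 bp and 19.6% over 1200 bp.

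The 85 members called lower had log2 changes from -0.71 to -0.26 with a median of -0.45. They comprised 22 regions of 400 bp and 63 of 600 bp, and their median distance to the nearest neighbour was 1400 bp, as for all members. Their ratios to input, which the choice by reads affects, were 2.72 and 2.71 in NIP and 2.05 and 2.17 in oschz1. The input reads per kb over them were 66.6 and 53.8 in NIP and 65.2 and 56.8 in oschz1, close to the 62.4, 50.4, 61.6 and 57.0 of all narrow regions of the same extent. An H3 peak was present in 64.7% and 56.5% of them in the NIP H3 libraries and in 69.4% and 70.6% in the oschz1 H3 libraries, beside 45.8%, 42.2%, 43.6% and 39.5% of all narrow regions of the same extent. It was present in all 4 H3 libraries in 25 of the 85 (29.4%, beside 14.4%) and in none in 7 (8.24%, beside 27.3%). These differences were not tested.

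The largest falls and all rises among these calls are given here, chosen after their values were seen. RPM now refers to the recovered library size. A region of 400 bp on chromosome 9 (15675401 to 15675800) had 8.92 and 6.79 RPM in NIP and 5.29 and 4.41 in oschz1. Its log2 change was -0.71 ± 0.16 (SE) with an edgeR adjusted p of 0.0028, while its ratios to input overlapped, at 2.33 and 1.58 in NIP and 1.33 and 2.52 in oschz1. A region on chromosome 7 (21288801 to 21289200) had 7.12 and 6.67 RPM in NIP and 4.25 and 4.41 in oschz1, with ratios to input of 3.83 and 3.32 against 1.35 and 1.26. Here reads and ratio separated the genotypes, although input reads also differed, at 16 and 14 in NIP and 27 and 28 in oschz1. A region on chromosome 5 (24618601 to 24619000) had 7.86 and 8.69 RPM in NIP and 6.08 and 4.62 in oschz1, and its ratios to input were 1.99 and 4.04 against 1.86 and 1.68.

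Of the 4 members with more reads in oschz1, 3 were on chromosome 12. The region from 19092601 to 19093000 had 7.16 and 6.55 RPM in NIP and 9.34 and 10.9 in oschz1. The region from 24801801 to 24802200 had 4.21 and 3.99 in NIP and 5.93 and 5.67 in oschz1. The region from 22080801 to 22081400 had 6.01 and 6.37 in NIP and 7.96 and 8.87 in oschz1, and it was the only one of the 4 whose ratios to input also separated upward, from 1.23 and 1.43 to 1.89 and 2.03. The fourth was on chromosome 6 (15192001 to 15192400), with 4.76 and 4.17 RPM in NIP and 5.88 and 7.76 in oschz1. Its input reads rose as well, from 16 and 18 to 38 and 37, and its ratios to input were 2.56 and 1.62 in NIP and 1.32 and 1.68 in oschz1. The log2 changes of the 4 ran from 0.44 to 0.60 with edgeR adjusted p from 0.0072 to 0.035.

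**Figure D4:**
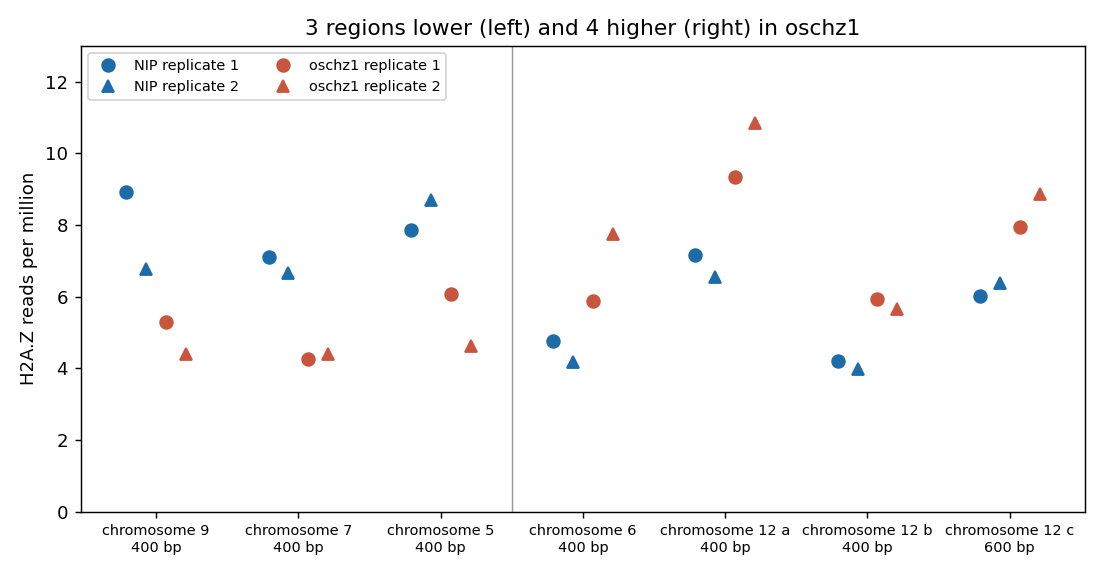
H2A.Z RPM (recovered library size) in each library for the 3 largest falls and the 4 rises among the narrow regions of the same extent that passed the threshold. Points are single libraries. The values ranged from 3.99 to 10.9. The 2 colours do not overlap in any of the 7 regions, but the regions were chosen by these same reads, so this is no separate support.

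H3 peaks were compared next, since they had no part in choosing the regions. Of the narrow regions, 41.1% and 38.1% overlapped an H3 peak in the NIP H3 libraries and 40.2% and 35.4% in the oschz1 H3 libraries. H3 peaks covered 15.4%, 14.0%, 15.0% and 13.5% of the chromosome length that peaks span. Regions over 600 bp overlapped an H3 peak in 58.9%, 55.1%, 57.7% and 53.6% of cases, so narrow regions were 17.6 ± 0.451 percentage points lower (SD, n = 4). The order was the same in all 4 H3 libraries. An exact sign-flip permutation test gave a two-sided p of 0.125, the smallest that 4 libraries allow. A longer region has more bases with which to touch an H3 peak. This test therefore cannot tell a difference in H3 from the difference in width. Against regions over 600 and up to 1200 bp the difference was -11.3 points, and with only the H3 peaks at a false discovery rate of at most 1e-10 narrow regions differed from longer ones by -8.54 points.

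The direction depended on how overlap was counted, and the cause was not tested. H3 peaks covered 33.2%, 30.7%, 32.7% and 28.8% of the bases of narrow regions and 32.4%, 29.3%, 31.1% and 28.4% of those of longer ones. On this scale narrow regions were higher, by 1.08 ± 0.531 points (SD, n = 4; exact permutation p of 0.125). With at least 50% of a region under H3 peaks the narrow share was 38.5%, 35.5%, 37.7% and 32.8%, and it was above the longer one in 3 of 4 libraries, by 0.803 points on average (exact permutation p of 0.25, n = 4). Against regions over 600 and up to 1200 bp, the differences on these scales were -3.93 and -6.96 points, with narrow regions lower in all 4 libraries.

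Within the narrow class, overlap rose with width. The share of members with an H3 peak was 26.5%, 28.6%, 20.4% and 24.5% at 200 bp, 37.6%, 33.3%, 34.9% and 29.5% at 400 bp, and 42.3%, 39.7%, 42.1% and 37.4% at 600 bp. Directly beyond the limit, at 800 bp, it was 49.4%, 46.5%, 50.02% and 43.6%. H3 peaks themselves repeated poorly over these short regions, in libraries of unequal depth (9179714 to 14466571 reads in H3 peaks). An H3 peak was present in all 4 H3 libraries in 497 members (12.3%), in 3 in 658, in 2 in 742, in 1 in 822, and in none in 1332 (32.9%). Longer regions had an H3 peak in all 4 libraries in 30.6% of cases and in none in 21.2%.

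The genotypes did not separate in H3 overlap. The share of narrow regions with an H3 peak averaged 39.6% ± 2.11 in the NIP libraries and 37.8% ± 3.33 in the oschz1 libraries (SD, n = 2). The exact permutation p was 0.667. The difference of -1.75 points was smaller than the spread between replicates. Without oschz1 replicate 2 it was 0.605 points. Depth differed with the replicate number. Reads in H3 peaks were 13961812 and 14466571 in replicate 1 of NIP and oschz1, and 9985812 and 9179714 in replicate 2. Within each number the oschz1 share was the lower, at 40.2% against 41.1% and 35.4% against 38.1%. The part of depth was not tested.

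**Figure D5:**
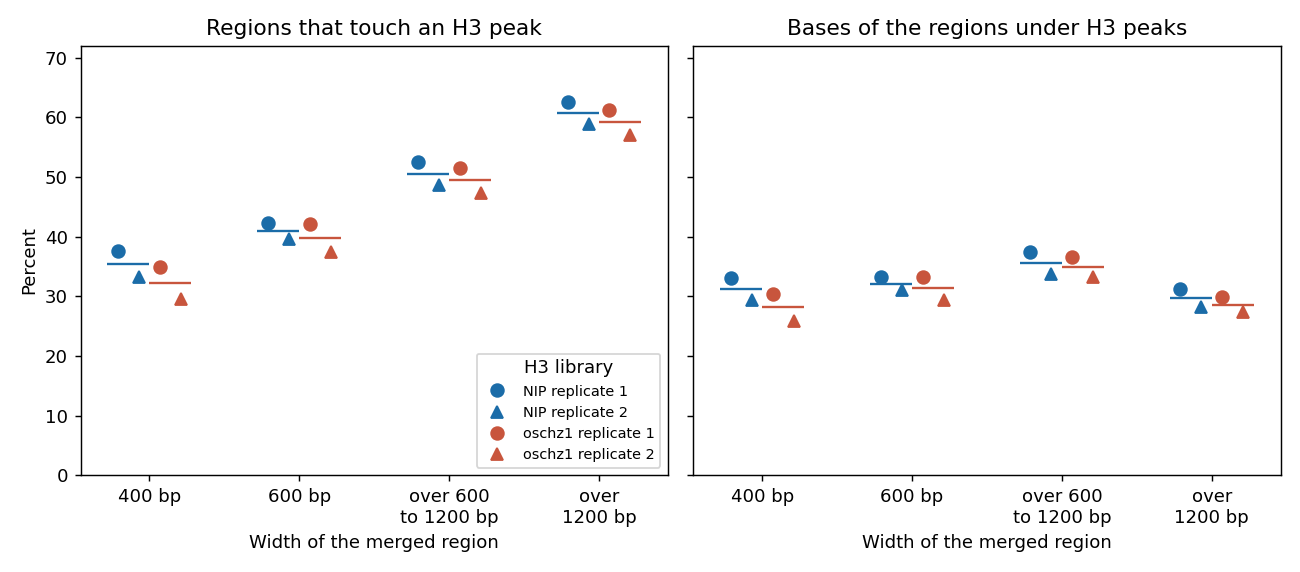
Overlap of H2A.Z regions with H3 peaks in each of the 4 H3 libraries, by width of the H2A.Z region. The left panel gives the percent of regions that touch an H3 peak and the right panel the percent of their bases under H3 peaks. Points are libraries and horizontal lines means of 2 libraries. The left values climb from between 29.5% and 37.6% at 400 bp to between 57.1% and 62.5% over 1200 bp, while the right values stay between 25.9% and 37.4%.

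H2A.Z over input was higher in narrow regions with H3 peaks than in those without, in each of the 4 H2A.Z libraries. In the 497 members with an H3 peak in all 4 H3 libraries, H2A.Z over input was 2.33 and 2.42 in NIP and 2.29 and 2.28 in oschz1. In the 1332 members with none it was 1.96 and 2.01 in NIP and 1.94 and 1.94 in oschz1. The difference on the log2 scale was 0.25 ± 0.014 (SD, n = 4), with an exact sign-flip permutation p of 0.125, the smallest possible. An input served both the H2A.Z and the H3 library of its genotype and replicate number, so a low input count raises both ratios. Without the input, in H2A.Z reads per kb scaled to the reads in peaks, the difference was 0.51 ± 0.037 (SD, n = 4). It was larger than the difference in enrichment because input reads per kb were also higher in the members with H3 peaks. The part of read coverage in the calling of both kinds of peak was not tested. In members of the same extent the enrichment differed by 0.30, and in members of 400 bp or less by 0.13. In regions over 600 and up to 1200 bp the difference was 0.42.

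The change in oschz1 was also read in these groups. Members with an H3 peak in all 4 H3 libraries differed by -0.057 on the log2 scale of enrichment and those with none by -0.036. In H2A.Z reads per kb scaled to the reads in peaks, which sets the sum over all peaks equal, they differed by -0.063 and -0.0011. For the difference between the groups the exact permutation p was 0.333 on both scales, the smallest that 2 libraries against 2 can give.

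In some members the H2A.Z and the H3 peak of one genotype and replicate number had the same start and end, so that both ChIPs could be set against the same input reads over the same bases. This was so in 760 and 675 members in NIP and in 678 and 560 in oschz1, and the input count was identical in each of them. There H2A.Z over input was 2.40 and 2.46 in NIP and 2.34 and 2.35 in oschz1, and H3 over input was 1.56 and 1.62 in NIP and 1.60 and 1.65 in oschz1. H2A.Z relative to H3 averaged 1.53 ± 0.0131 in the NIP pairs and 1.44 ± 0.0325 in the oschz1 pairs (SD, n = 2), or -0.080 on the log2 scale. The genotypes did not overlap, at an exact permutation p of 0.333. In the 85 members in which the coordinates matched in all 4 pairs, the ratio was 1.51 and 1.51 in NIP and 1.38 and 1.41 in oschz1. The direction was thus the same in a fixed set of regions, at -0.11.

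The members with the highest H3 over input among those with matching coordinates in all 4 H3 libraries were on chromosomes 1, 5 and 6. The first is a single window of 200 bp (7321401 to 7321600), with H3 ratios of 1.53 and 3.28 in NIP and 3.98 and 2.21 in oschz1. Its H2A.Z reads were 80 and 70 in NIP and 82 and 69 in oschz1, and its input reads were 17, 6, 5 and 10, so the high ratios fell in the libraries with few input reads. The region on chromosome 5 (17846801 to 17847200) had H3 ratios of 1.76 and 3.26 in NIP and 1.62 and 3.67 in oschz1, with input reads of 30 and 15 and of 38 and 15. The region on chromosome 6 (27134201 to 27134600) had H3 ratios of 1.92 and 1.64 in NIP and 2.33 and 4.04 in oschz1. Its H2A.Z ratios were 2.74 and 2.13 against 2.91 and 4.23. Input reads were 27 and 25 in NIP and only 18 and 12 in oschz1. H2A.Z reads themselves were lower in oschz1, at 8.60 and 7.62 RPM (recovered library size) in NIP and 6.13 and 6.35 in oschz1.

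Distance to the neighbour was the last property examined. The 1700 members with another H2A.Z region within 1000 bp had H2A.Z over input of 2.17 and 2.18 in NIP and 2.06 and 2.05 in oschz1, a log2 difference of -0.078. The 2172 members with a neighbour farther than that but within 10000 bp had 2.06 and 2.10 in NIP and 1.99 and 1.99 in oschz1, a difference of -0.066. In the 179 most isolated members the genotypes overlapped, at 2.03 and 2.06 in NIP and 2.10 and 2.02 in oschz1, a difference of 0.011. In those of the same extent, 104 regions, the difference was -0.016. Whether the difference between the genotypes itself varied with distance was not tested. H3 peaks overlapped 38.7%, 33.9%, 36.4% and 31.4% of the members with a neighbour within 1000 bp, 42.9%, 41.2%, 43.1% and 38.4% of those with a neighbour farther than that but within 10000 bp, and 40.8%, 40.2%, 40.8% and 38.5% of the most isolated ones. The first group was the lowest in each of the 4 H3 libraries, and the most isolated members were not above the middle group in 3 of them.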

How the data were processed

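Each of the 8 deposited ChIP tables lists the peaks of 1 library with the count of ChIP reads and of input reads. Each table also has the p-value, the fold over input and the q-value that the authors' caller wrote. The 4 inputs enter only through those counts. The authors mapped trimmed reads with Bowtie2 (MSU rice genome, release 7) and filtered them with SAMtools for mapping quality and PCR duplicates. They called peaks per library against input with SICER in windows of 200 bp at a false discovery rate of 0.05. The caller for H3 is not given in the sources used here, and its tables have the same layout. Positions count from 1.

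The deposited fold was used only to recover each library's ratio of ChIP to input size, by which input reads were scaled. Enrichment is summed ChIP reads over summed scaled input reads. The recovered library size is that ratio times the input reads over regions of the same extent. Peaks were merged and counts summed per region in Python 3.11.15. Reads were tested with edgeR 4.0.16 (quasi-likelihood, Benjamini-Hochberg) in R 4.3.3 on the 38145 regions called in every H2A.Z library, and all of them entered the adjustment. limma 3.58.1 used log2 ratios with a pseudocount of 0.5, and DESeq2 1.42.0 was an alternative. The main edgeR test was checked on simulated counts with known changes, which did not include unequal covered bases. Values per library were compared by exact permutation tests.

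Regions are named by rule: the 5 highest mean ratios with at least 10 input reads in every library, the largest rises and falls past the threshold or, with none, the 2 smallest p per direction, the 3 most isolated, and the 3 with the highest H3 ratio. Members, lists and alternatives were chosen with earlier results of these data known. Added still later were the library size from the study's mapped reads, values within chromosomes, leave-one-out fits and a block in regions of the same extent, the ratio of H2A.Z to H3, and the grouping by H3 peaks. Counting error alone is covered where an SD from counts is given. Place in genes and sequence were not analysed here.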

Additional observations from a re-analysis of the deposited data

How the results depend on the processing

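The number of narrow regions was 1043 with peaks at a false discovery rate of at most 1e-10, 688 with peaks of at least 2-fold, 984 with a width of 400 bp or less, and 4895 to 5430 when one library was left out and the other 3 had to hold a peak. The median distance to the next region was 2200 bp when only neighbours with a peak in all 4 libraries counted. Narrow regions lower and higher in oschz1, 0 and 0 in the main edgeR test, were 32 and 5 with the same extent, 85 and 4 with the same extent and recovered library size, and 1 and 2 with DESeq2. Leaving out one library gave 0 and 0 in the main test, and with the same extent and recovered size 29, 43, 82 and 38 lower and 2, 1, 5 and 0 higher, without NIP replicates 1 and 2 and oschz1 replicates 1 and 2. The median log2 change of -0.026 became -0.0017 with TMM factors, -0.0014 with DESeq2, -0.072 with the recovered size, -0.061 with the study's mapped reads, -0.081 with the same extent and recovered size, -0.057 with stricter peaks and -0.057 with limma. It ranged from -0.039 to -0.015 without one library, and with the same extent and recovered size it was -0.087, -0.079, -0.097 and -0.078 in the order above.

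The share with an H3 peak against longer regions, -17.6 points, was -8.54 with H3 peaks at a false discovery rate of at most 1e-10 and -22.9 at 400 bp or less, turned to 0.803 with at least 50% of the region covered and to 1.08 as a share of bases, and ranged from -17.8 to -17.5 without one library. The change of the H3 share in oschz1, -1.75 points, turned to 0.407 with stricter H3 peaks and ranged from -4.11 to 0.605 without one library. The fall on chromosome 2 from 5463801 turned to 0.41 with covered length as an offset. The rise on chromosome 5 from 11474001 turned to -0.50 with that offset and -0.19 with limma, and the rise on chromosome 2 from 11348201 to -0.25 and -0.25. The other alternatives kept the direction of the differences in enrichment, from -0.10 to -0.018, and of narrow against longer regions, from 0.018 to 0.056. The causes of these shifts were not tested, apart from the number of regions that a stricter choice of peaks or widths leaves.

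Replicates of the same number in NIP and oschz1 are not known to share more than a number. For H2A.Z, the correlation of their deviations was -0.00047 over regions of the same extent and -0.013 over all narrow ones. Reads in H3 peaks did follow the number. They were 13961812 and 14466571 in replicate 1 of NIP and oschz1, and 9985812 and 9179714 in replicate 2. With the replicate number as a block edgeR again called 0 lower and 0 higher of the narrow regions, with 74 falls (1.83%) and 54 rises (1.33%) at an unadjusted p below 0.05, beside 6.02% and 5.92% of all regions, and a median of -0.026. With the block, the same extent and the recovered size, it called 56 lower (2.56%) and 3 higher (0.137%), beside 9.53% and 0.239% of all regions of the same extent, with a median of -0.082.

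With 2 libraries per group no exact test could pass 0.05. A median of 23 to 29 input reads per member limits the ratio to input of single regions. The count of ChIP reads limits the 200 bp members most.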
